A study of Homo sapiens with 12 samples.

Results

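The integrated stress response and the unfolded protein response were followed here through 37 genes in BT549 cells, a long-used line derived from a human breast tumour of the triple-negative type. The genes were chosen by symbol as known members of these pathways, with earlier results of these data known. All 37 were found among the 27046 genes of the count table. Each of them passed the filter on low counts, as did 12122 genes in all. RNA was sequenced from 4 groups of 3 libraries. Control cells had been transfected with a non-targeting siRNA pool and knockdown cells with siRNA pools against both FOSL1 and JUN, subunits of the AP-1 transcription factor. In either arm the cells received DMSO, the solvent, for 48 h, or the PARP inhibitor olaparib, for which the sample labels also give 48 h. All groups therefore carried siRNA, no group lacked transfection, and FOSL1 and JUN were never lowered separately. The dose of olaparib is not given in the sources used here.

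In the integrated stress response, kinases that each sense a different stress phosphorylate the translation factor eIF2 alpha. General protein synthesis then falls, while the mRNA of the transcription factor ATF4 is translated more, so that ATF4 RNA is an incomplete readout of ATF4 protein. ATF4 and its target CHOP, encoded by DDIT3, switch on genes of amino acid supply, redox balance and cell death. The unfolded protein response reports misfolded protein in the endoplasmic reticulum (ER) through PERK, IRE1 and ATF6, and raises chaperones and the machinery of ER-associated degradation. Counts per gene do not separate the spliced form of XBP1 RNA, the product of IRE1 activity, from the unspliced one.

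Sequencing depth lay between 13763179 and 39715900 counts per library. FOSL1 RNA in knockdown cells was left at 37.4% of its level in control cells in DMSO and at 16.8% in olaparib, and JUN RNA at 38.2% and 25.8%. The mesenchymal markers VIM, CDH2, ZEB1, SPARC and FN1 were present at 23.4 CPM (counts scaled to a common library size) or more in every library, PGR was at 0 in all 12, and ESR1 and EPCAM stayed below 0.1 CPM. ERBB2 at 96.6 to 130.1 CPM and GATA3 at 22.2 to 38.2 CPM were present, while CDH1 reached 1.48 CPM and KRT8 2.09 CPM at most. Of markers of other cell types, VWF and CDH5 were at 0, PECAM1, CD3E and PTPRC stayed below 0.5 CPM, and CD68 moved with both treatments between 15.5 and 60.2 CPM. The part of CD68 in the results below was not tested. Knockdown libraries differed more among themselves than control libraries, with a chi-square per gene of 5.06 to 13.1 between pairs of one group against 1.76 to 3.95. This measure grows with depth, and the deepest library was knockdown olaparib library 2. Its pairs with libraries 1 and 3 of its group had 5.06 and 5.44. The pair of libraries 1 and 3, with 16047066 and 14728327 counts, had 11.2. The part of depth in the difference between arms was not tested. The median coefficient of variation of the 37 genes was 4.85% with DMSO and 3.15% with olaparib in control cells. In knockdown cells it was 5.15% and 5.64%. Of the 37 genes, CEBPB and SDF2L1 had the largest coefficients of variation in both knockdown groups, and both are given with them below. The labels do not say that the 3 libraries of a group came from separate cultures, so the p-values measure the spread between these libraries, which may be technical. In bulk RNA, fewer cells of a type and less RNA per cell cannot be told apart.

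Promoter letters are shown first because the levels of several of these genes are usually discussed through short DNA elements bound by ATF4, CHOP, ATF6, XBP1 and AP-1. RefSeq promoter windows on GRCh38.p14, 250 bases before to 50 bases after each start site, were held for 32 of the 37 genes. EIF2AK1, NUPR1, PSPH, SHMT2 and PYCR1 had no entry. The C/EBP-ATF response element, TGATGNAA on either strand, occurred in 4 of the 32 genes, against 4.457% of all 27305 genes with a window. Counted by window, 3.617% of all 35116 windows held it. The 4 genes are ASNS, CHAC1, CEBPG and HERPUD1, which are also 4 of the 7 genes whose response to olaparib differed between arms, described further on. Of the other 3, PSAT1 and CTH held no match in their windows and PSPH had no entry. The difference between arms was positive for ASNS, CHAC1 and CEBPG and negative for HERPUD1. The CEBPG and HERPUD1 calls were lost under some alternative settings. The share of genes with the element was not counted among all genes with a called difference, so this overlap has no background beside it. Whether the element bears on the response was not tested. The lines below give the element in capitals with the bases around it, 5′ to 3′ on the strand of the gene, and TTGCATCA is the element read on the opposite strand.
ASNS: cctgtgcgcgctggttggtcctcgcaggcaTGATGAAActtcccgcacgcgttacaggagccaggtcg
CHAC1: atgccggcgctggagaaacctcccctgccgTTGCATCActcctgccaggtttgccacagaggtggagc
CEBPG: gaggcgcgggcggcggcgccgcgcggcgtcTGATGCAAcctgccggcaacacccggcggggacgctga
HERPUD1: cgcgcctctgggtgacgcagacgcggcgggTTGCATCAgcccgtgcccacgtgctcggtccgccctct

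These stretches lie at chr7:97872439-97872506, chr15:40953232-40953299, chr19:33374041-33374108 and chr16:56931936-56932003, and ASNS is read from the minus strand. The elements begin 68, 209, 42 and 176 bases before the respective start sites. The ER stress element, CCAAT and CCACG separated by 9 bases, was found in XBP1, CALR, CRELD2 and PDIA6, which are 4 of the 32 genes, against 0.092% of all genes and 0.077% of all windows. It is shown in capitals for these genes of the unfolded protein response, and a run that starts with CGTGG is the element on the opposite strand.
XBP1: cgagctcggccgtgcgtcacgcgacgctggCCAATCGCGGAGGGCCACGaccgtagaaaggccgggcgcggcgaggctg
CALR: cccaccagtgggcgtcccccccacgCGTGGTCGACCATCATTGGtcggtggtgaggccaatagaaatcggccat
CRELD2: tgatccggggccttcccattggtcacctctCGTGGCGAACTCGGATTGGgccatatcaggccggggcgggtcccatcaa
PDIA6: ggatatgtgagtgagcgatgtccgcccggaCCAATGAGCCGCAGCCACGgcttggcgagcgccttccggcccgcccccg

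Their positions are chr22:28800573-28800651 and chr2:10812823-10812901 on the minus strand, and chr19:12938359-12938432 and chr22:49918524-49918602 on the plus strand. The unfolded protein response element TGACGTGG was found only in ALDH18A1 among the 32 genes, against 0.927% of all genes and 0.729% of all windows. For AP-1, whose subunits the siRNA lowered, the pattern TGANTCA was searched, a loose form of its element that allows any middle base. It occurred in DDIT3 and ATF5 as TGACTCA and in EIF2AK4 as TGATTCA. These genes are 9.375% of the 32, the share for the loose pattern being 9.368% of all genes and 7.709% of all windows. The DDIT3 and ATF5 stretches, with the AP-1 element in capitals, are shown because DDIT3 fell with the knockdown and ATF5 did not.
DDIT3: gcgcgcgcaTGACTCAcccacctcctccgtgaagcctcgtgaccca
ATF5: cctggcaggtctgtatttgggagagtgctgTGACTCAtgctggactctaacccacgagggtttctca

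The DDIT3 stretch lies at chr12:57520719-57520764 on the minus strand and the ATF5 stretch at chr19:49928688-49928754 on the plus strand. No match of one element overlapped a match of another. A match describes letters in a window and is not a measured binding site, and a gene without a match may hold the element elsewhere.

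Olaparib raised most of these genes and the knockdown lowered most of them. In control cells olaparib raised 20 of the 37 genes and lowered 5, against 23.6% higher and 23.2% lower among all genes tested (edgeR quasi-likelihood F test, Benjamini-Hochberg adjusted p below 0.05). The median log2 fold change was 0.15 over the 37 genes and -0.0076 over all genes. In knockdown cells 24 rose and 4 fell, against 24.1% and 24.0%, with a median of 0.32 beside -0.009 for all genes. The drug comparisons in the 2 arms share no library. Of the genes that rose, 16 rose in both arms, which is 80.0% of those called in control cells and 66.7% of those called in knockdown cells. Over all genes tested, the genes that rose in both arms were 68.8% and 67.6% of those called.

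The knockdown in DMSO lowered 22 of the 37 genes and raised 0, against 15.2% lower and 14.7% higher among all genes tested. The count of 0 came from edgeR and also from the Wald test of DESeq2, and 0 of the 37 genes were higher at an unadjusted edgeR p below 0.05. The median log2 fold change was -0.26, beside 0.0037 for all genes. In olaparib the knockdown lowered 19 and raised 5, against 19.3% and 19.0%, with a median of -0.16 beside 0.0081. Of the genes that fell, 16 fell both in DMSO and in olaparib, 72.7% and 84.2% of those called, and these comparisons share no library either. Over all genes tested the same shares were 65.5% and 51.7%. CHAC1, CTH, PCK2, PSAT1 and PSPH were the 5 genes that were higher in knockdown cells under olaparib.

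**Figure D1:**
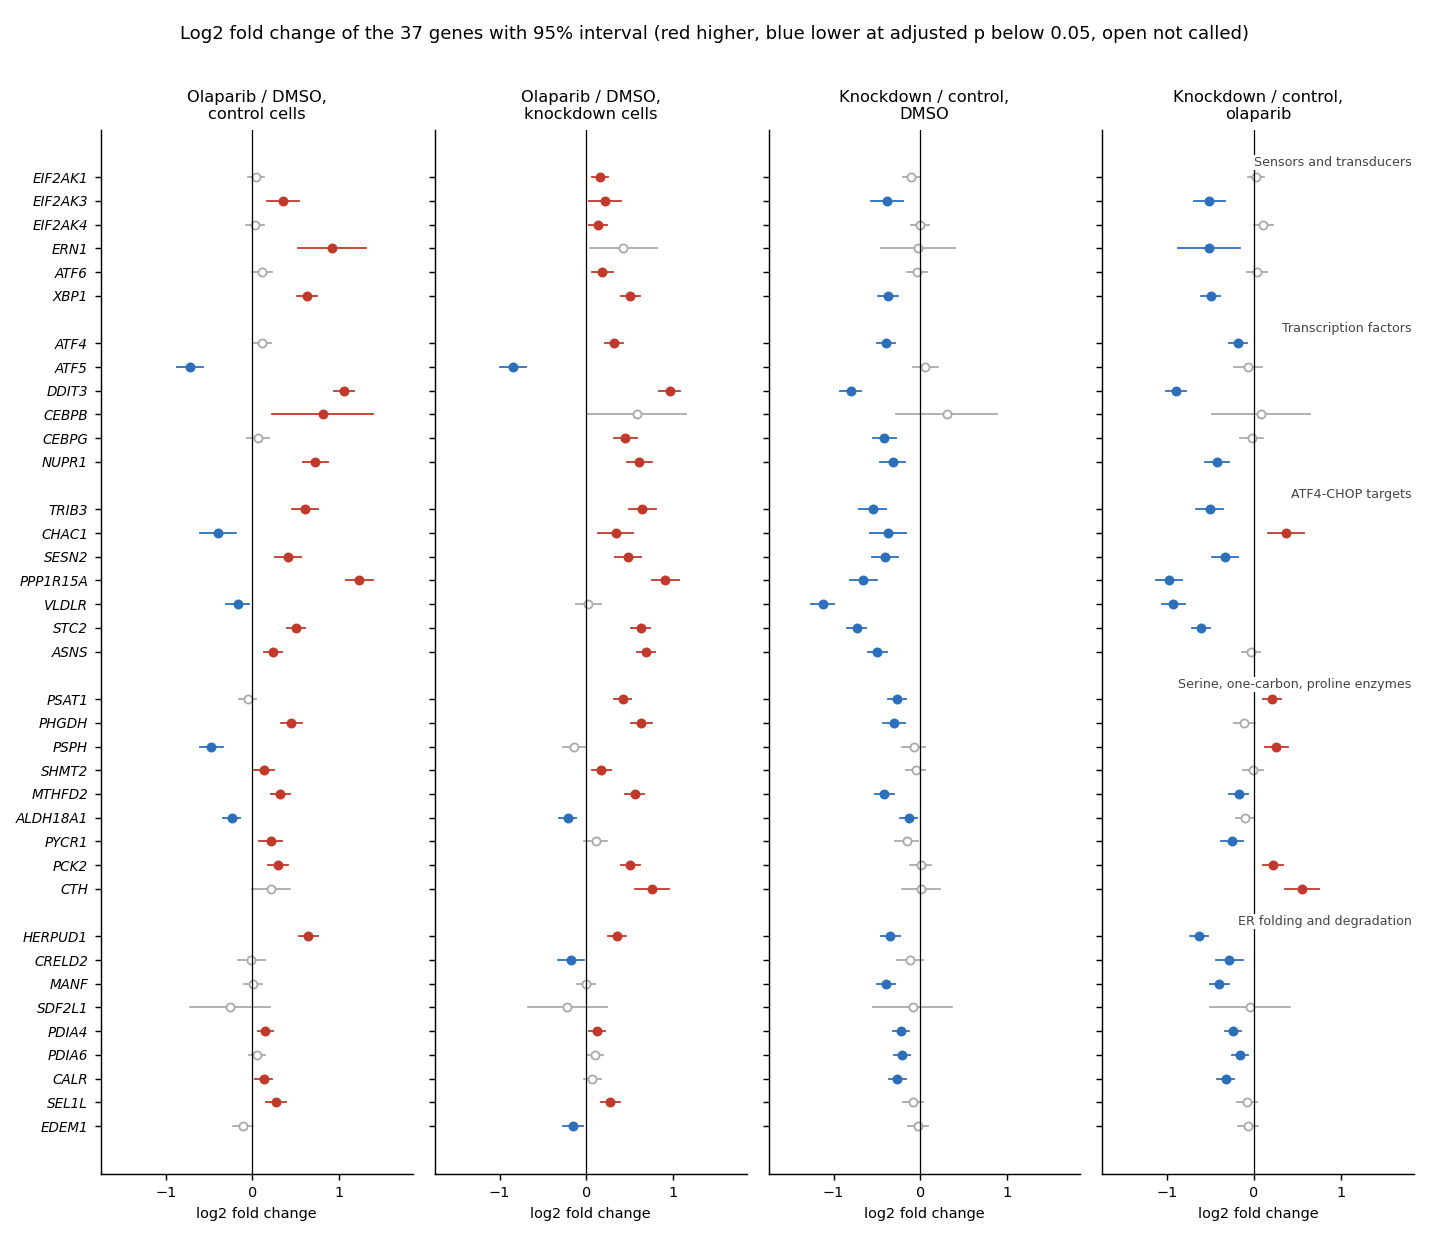
Log2 fold change of each of the 37 genes (points) with its 95% interval (lines) in 4 comparisons, one per panel, grouped by role from top to bottom. Red points were called higher and blue points lower at an adjusted p below 0.05, and open points were not called. The first 2 panels hold 20 and 24 red points, the third holds 22 blue points and no red one, and the 5 red points of the fourth are CHAC1 and 4 enzymes.

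Sensors and transducers came first in the pathway, and the clearest changes among the 6 were in the IRE1 and PERK arms. Olaparib raised 3 of the 6 in control cells and 5 in knockdown cells and lowered none of them by edgeR, by DESeq2 or at an unadjusted p below 0.05. Of all genes tested, 23.6% rose and 23.2% fell in control cells, and 24.1% and 24.0% in knockdown cells. XBP1, the transcription factor made after IRE1 splices its RNA, stood at 90.4, 80.7 and 81.1 CPM in DMSO-treated control cells and at 129, 131 and 130.1 CPM with olaparib. In knockdown cells its level was 62.6, 63.9 and 67.5 CPM with DMSO and 91.0, 93.2 and 92.3 CPM with olaparib. All olaparib libraries were above the DMSO libraries of the same arm, and all knockdown libraries were below the control libraries with the same drug. The olaparib effect in control cells was a 1.55-fold rise (log2 fold change 0.63, SE 0.0539, adjusted p = 2.17e-08), and in knockdown cells the log2 fold change was 0.51 (SE 0.0542, adjusted p = 4.16e-07). With knockdown XBP1 was 1.30-fold lower in DMSO and 1.41-fold lower in olaparib, with adjusted p of 2.99e-05 and 4.48e-07.

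ERN1, which encodes IRE1 alpha itself, was the least abundant of the 37 genes per kilobase of length. Its level was 4.25, 3.09 and 4.40 CPM in DMSO-treated control cells and 8.73, 8.23 and 5.52 CPM with olaparib. Knockdown cells held 3.91, 4.55 and 3.19 CPM with DMSO and 4.81, 5.55 and 4.78 CPM with olaparib. The olaparib libraries of control cells were above all others except 1 knockdown library with olaparib, which lay just above the lowest of them. In control cells ERN1 rose (log2 fold change 0.92, SE 0.188, adjusted p = 0.000671). In knockdown cells its log2 fold change was 0.43 with a 95% interval of 0.041 to 0.81 and was not called (adjusted p = 0.0635). This rise was called with no filter on low counts (adjusted p = 0.0291) and with only the 2 groups compared (0.0495). It was also called without control olaparib library 3 (0.0296) or knockdown DMSO library 2 (0.0285). Under olaparib ERN1 was lower with knockdown (log2 fold change -0.52, SE 0.171, adjusted p = 0.0234), although the groups overlapped, and this call was lost without control olaparib library 1 or 2 or knockdown olaparib library 1 or 3, where adjusted p reached 0.124. The difference between the arms, -0.49 on the log2 scale, did not pass (adjusted p = 0.284).

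EIF2AK3 encodes PERK, the ER-resident kinase of eIF2 alpha. Control cells held 21.99, 17.7 and 21.0 CPM of its RNA with DMSO and 26.1, 26.2 and 25.2 CPM with olaparib, and knockdown cells held 16.9, 14.8 and 15.2 CPM and 16.6, 18.4 and 19.1 CPM. Control cells with olaparib were the highest group and did not overlap any other. EIF2AK3 rose with olaparib in control cells (log2 fold change 0.35, SE 0.0866, adjusted p = 0.00263) and fell with knockdown in DMSO (log2 fold change -0.38, SE 0.0894, adjusted p = 0.0031) and in olaparib (log2 fold change -0.51, SE 0.0855, adjusted p = 9.34e-05). In knockdown cells the olaparib groups overlapped, and its rise (adjusted p = 0.0489) was lost under 14 of 20 alternative settings, with adjusted p of up to 0.164. The other kinases and ATF6, the ER membrane protein that is cleaved to a transcription factor, moved little. The log2 fold change with olaparib in knockdown cells was 0.16 for EIF2AK1 (HRI, the haem-regulated kinase), 0.14 for EIF2AK4 (GCN2, the sensor of amino acid lack) and 0.19 for ATF6. None of these 3 was called in control cells or in either knockdown comparison in the main fit. The EIF2AK4 rise was lost under 7 alternative settings, up to an adjusted p of 0.154, and the ATF6 rise without knockdown olaparib library 2 (0.0554). ATF6 was called higher with olaparib in control cells with only the 2 groups compared (0.0385) or without control DMSO library 1 (0.0342). EIF2AK1 was called lower with knockdown in DMSO without knockdown DMSO library 1 (0.0436). With upper-quartile scaling EIF2AK4 was called higher with knockdown in olaparib (0.0402).

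**Figure D2:**
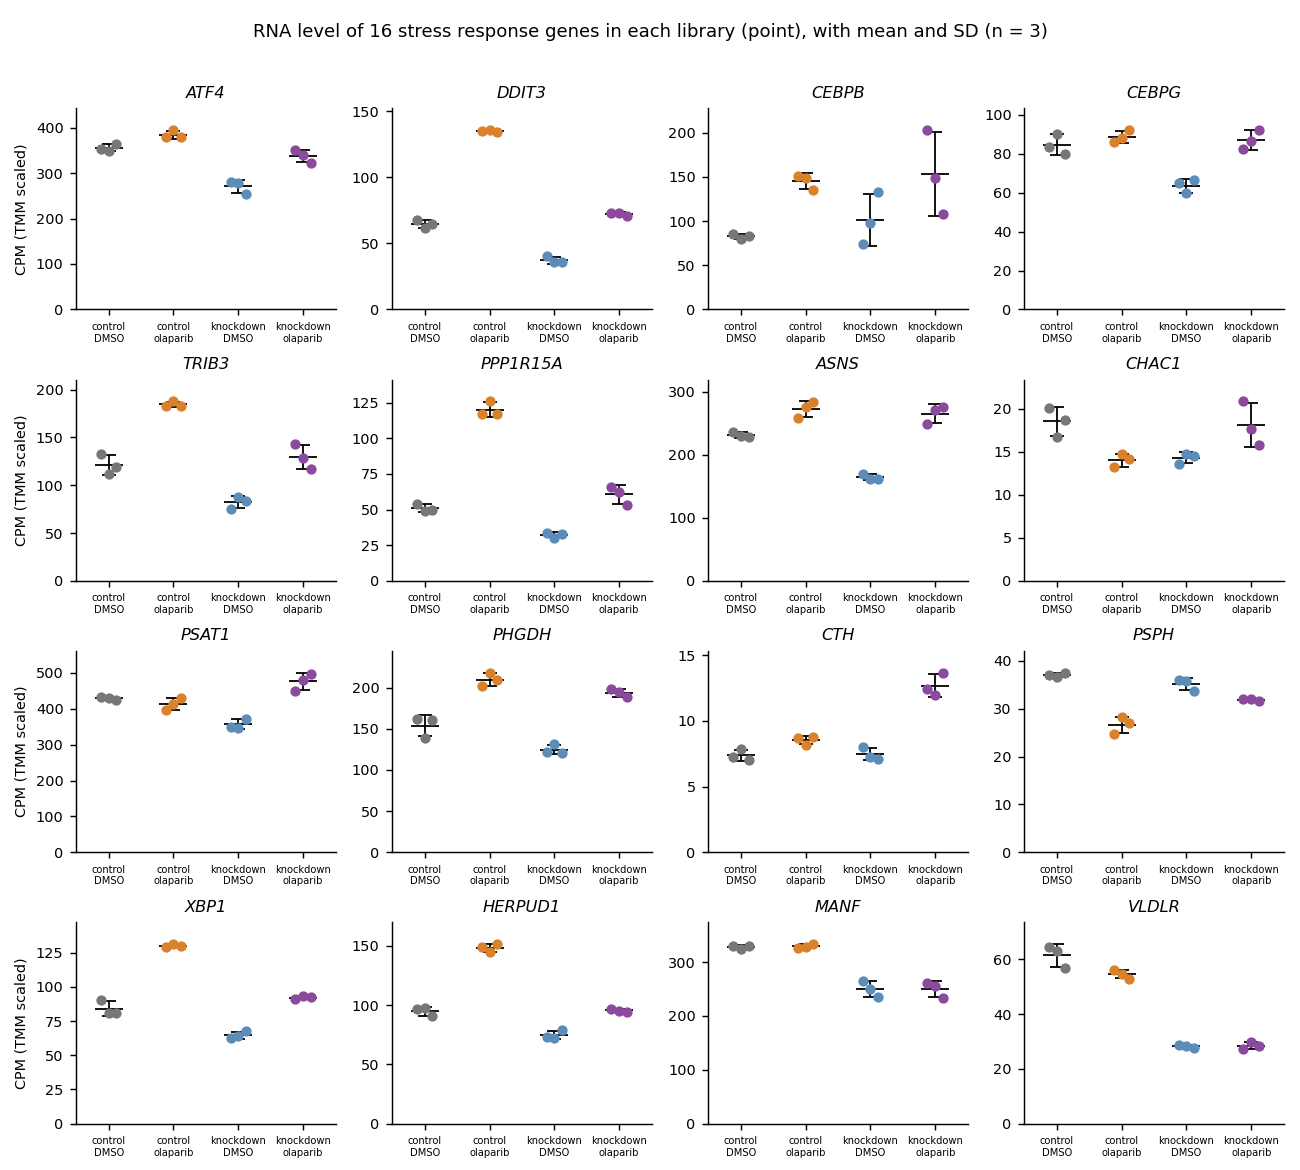
RNA level of 16 of the genes in TMM-scaled CPM (vertical axis, from 0) in the 4 groups (horizontal axis), with 1 point per library and the mean and SD (n = 3) as bars. DDIT3, PPP1R15A and XBP1 are highest in control cells with olaparib, VLDLR and MANF are low in both knockdown groups, and CHAC1 goes down with olaparib in control cells and up in knockdown cells.

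Among the 6 transcription factors, DDIT3 had the largest called rises with olaparib and falls with knockdown, and ATF4 itself changed by less. Olaparib raised 3 (50%, against 23.6% of all genes) and lowered 1 (16.7%, against 23.2%) in control cells. In knockdown cells it raised 4 (66.7%, against 24.1%) and lowered 1 (16.7%, against 24.0%). Knockdown lowered 4 in DMSO and 3 in olaparib and raised 0 and 0 by edgeR, 0 and 0 by DESeq2 and 0 and 0 at an unadjusted p below 0.05. Those it lowered were 66.7% and 50%, against 15.2% and 19.3% of all genes. ATF4 had 353, 349 and 364 CPM in DMSO-treated control cells and 379, 395 and 379 CPM with olaparib. It had 281, 278 and 254 CPM in DMSO-treated knockdown cells and 351, 339 and 323 CPM with olaparib. DMSO-treated knockdown cells were the lowest group, and every olaparib library was above the DMSO libraries of its arm. The olaparib effect was 0.11 on the log2 scale in control cells (95% interval 0.011 to 0.21, adjusted p = 0.0635), which 5 of 20 alternative settings called, with adjusted p down to 0.0176. In knockdown cells ATF4 rose (log2 fold change 0.32, SE 0.0484, adjusted p = 3e-05). It fell with knockdown in DMSO (log2 fold change -0.39, SE 0.0486, adjusted p = 4.19e-06) and in olaparib (-0.19, adjusted p = 0.00483), and the difference between these effects, 0.20, did not pass (adjusted p = 0.0845).

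DDIT3 encodes CHOP, the ATF4-induced factor linked to cell death under lasting ER stress. Control cells held 67.6, 61.9 and 64.8 CPM with DMSO and 135, 136 and 134 CPM with olaparib. The corresponding levels in knockdown cells were 40.2, 35.8 and 35.9 CPM and 72.9, 73.1 and 71.0 CPM. The groups did not overlap, and knockdown cells with olaparib came close to DMSO-treated control cells. Olaparib raised DDIT3 2.08-fold in control cells (log2 fold change 1.06, SE 0.056, adjusted p = 2.72e-11) and 1.95-fold in knockdown cells (log2 fold change 0.96, SE 0.0579, adjusted p = 2.88e-10). Knockdown lowered it 1.74-fold in DMSO (log2 fold change -0.80, SE 0.0587, adjusted p = 4e-09) and 1.86-fold in olaparib (log2 fold change -0.90, SE 0.055, adjusted p = 2.37e-10). The drug effect did not differ detectably between arms, with a difference of -0.097 and a 95% interval of -0.27 to 0.071.

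CEBPB, a C/EBP factor that pairs with ATF4 family members, had 85.3, 80.2 and 82.9 CPM in DMSO-treated control cells and 152, 149 and 136 CPM with olaparib. Knockdown libraries 1 to 3 held 74.2, 98.0 and 132 CPM with DMSO and 203, 149 and 108 CPM with olaparib. The control groups were tight and separate, whereas the knockdown groups overlapped and had a coefficient of variation of 28.8% and 31.3%, the largest of the 37 genes. The fit over all groups put the rise in control cells at 0.81 (SE 0.254, adjusted p = 0.029). With only the 2 control groups adjusted p was 2.36e-16, and the call was lost when any 1 of the 6 control libraries was left out, up to 0.0797. The replicate number as a block also ended the call (0.0624). No other of the first 4 comparisons was called for CEBPB by edgeR with all libraries. Its rise with olaparib in knockdown cells was called by the DESeq2 Wald test (adjusted p = 0.0428). By edgeR it was called without knockdown DMSO library 3 (0.0293) or knockdown olaparib library 3 (0.0269).

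ATF5, a relative of ATF4 that is also translated more under stress, moved opposite to DDIT3 and NUPR1 with olaparib. Its level, added here after its values were seen to the genes given by library, was 30.7, 28.9 and 28.0 CPM in DMSO-treated control cells and 17.0, 18.7 and 17.6 CPM with olaparib. Knockdown cells held 30.5, 30.3 and 30.4 CPM and 15.9, 18.0 and 16.3 CPM. Both olaparib groups were below both DMSO groups. ATF5 fell with olaparib in control cells (log2 fold change -0.72, SE 0.0737, adjusted p = 2.62e-07) and in knockdown cells (log2 fold change -0.85, SE 0.0712, adjusted p = 2.09e-08) and was not called in either knockdown comparison (log2 fold change 0.058 and -0.071). NUPR1, a small stress-induced chromatin protein, rose with olaparib by 0.73 in control cells and 0.61 in knockdown cells on the log2 scale, with adjusted p of 6.98e-08 and 6.76e-07. It fell with knockdown, by 0.32 and 0.43, with adjusted p of 0.00182 and 3.76e-05.

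Every one of the ATF4-CHOP targets fell with knockdown in DMSO, and most rose with olaparib. All 7 were called lower with knockdown in DMSO, between -0.37 and -1.13 on the log2 scale, and 5 were called lower in olaparib. Of all genes tested, 15.2% and 19.3% were lower in these comparisons. Olaparib raised 5 (71.4%, against 23.6% of all genes) and lowered 2 (28.6%, against 23.2%) in control cells. In knockdown cells it raised 6 (85.7%, against 24.1%). None was lowered there by edgeR, by DESeq2 or at an unadjusted p below 0.05. PPP1R15A encodes GADD34, which directs a phosphatase to eIF2 alpha and so ends the response. It had 53.9, 49.2 and 49.8 CPM in DMSO-treated control cells and 117, 126 and 117 CPM with olaparib. In knockdown cells it had 33.8, 30.4 and 32.9 CPM and 66.1, 62.5 and 53.1 CPM. Control cells with olaparib stood above every other library. Its 2.35-fold rise in control cells was the largest rise of the 37 genes in any comparison (log2 fold change 1.24, SE 0.0725, adjusted p = 1.17e-10), and in knockdown cells it rose 1.88-fold (log2 fold change 0.91, SE 0.0747, adjusted p = 1.6e-08). Knockdown lowered it 1.58-fold in DMSO and 1.98-fold in olaparib, with adjusted p of 1.83e-06 and 2.11e-09.

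TRIB3, a pseudokinase induced by ATF4 and CHOP, and SESN2, a sestrin that restrains the growth kinase mTORC1, had like profiles. TRIB3 was at 133, 112 and 119 CPM in DMSO-treated control cells, 183, 188 and 183 CPM with olaparib, 75.5, 88.1 and 84.0 CPM in DMSO-treated knockdown cells and 143, 128 and 117 CPM with olaparib. SESN2 was at 69.7, 59.9 and 68.7, then 90.8, 90.1 and 82.3, then 49.2, 51.0 and 49.4, then 76.6, 67.0 and 64.8 CPM in the same order of groups. For both genes control cells with olaparib were highest, DMSO-treated knockdown cells were lowest, and knockdown cells with olaparib overlapped DMSO-treated control cells. TRIB3 rose with olaparib by 0.61 (SE 0.0732) in control cells and 0.65 (SE 0.074) in knockdown cells, with adjusted p of 3.27e-06 and 1.78e-06. SESN2 rose by 0.41 (SE 0.0709) and 0.48 (SE 0.0714), with adjusted p of 0.000118 and 2.42e-05. With knockdown TRIB3 fell by 0.55 in DMSO and 0.51 in olaparib, and SESN2 by 0.41 and 0.34, all called. STC2, a secreted stanniocalcin, rose by 0.51 and 0.63 with olaparib and fell by 0.73 and 0.61 with knockdown, all called.

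VLDLR, a lipoprotein receptor whose RNA ATF4 can raise, had the largest fall of the 37 genes. Its level was 64.7, 62.9 and 56.8 CPM in DMSO-treated control cells and 56.2, 54.7 and 53.0 CPM with olaparib, against 28.8, 28.3 and 27.5 CPM and 27.1, 29.9 and 28.5 CPM in knockdown cells. All 6 knockdown libraries were below all 6 control libraries. Knockdown lowered VLDLR 2.18-fold in DMSO (log2 fold change -1.13, SE 0.065, adjusted p = 1.35e-10) and 1.91-fold in olaparib (log2 fold change -0.93, SE 0.0649, adjusted p = 1.38e-09). The small fall with olaparib in control cells (-0.17, adjusted p = 0.0318) was lost under 7 of 20 alternative settings, up to an adjusted p of 0.151, and in knockdown cells the log2 fold change was 0.024 and was not called.

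ASNS, asparagine synthetase, is among the best characterised ATF4 targets. Control cells held 237, 229 and 229 CPM with DMSO and 259, 276 and 283 CPM with olaparib, and knockdown cells held 169.7, 162 and 162 CPM and 248, 271 and 277 CPM. DMSO-treated knockdown cells were the lowest group, and knockdown cells with olaparib overlapped control cells with olaparib. Olaparib raised ASNS 1.18-fold in control cells (log2 fold change 0.24, SE 0.0502, adjusted p = 0.000779) and 1.61-fold in knockdown cells (log2 fold change 0.69, SE 0.0504, adjusted p = 3.33e-09). Knockdown lowered it in DMSO (log2 fold change -0.49, SE 0.0506, adjusted p = 3.83e-07), and in olaparib the log2 fold change was -0.039 (95% interval -0.14 to 0.065) and was not called.

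CHAC1, an enzyme that breaks down glutathione, changed direction between the arms. It had 20.1, 16.7 and 18.7 CPM in DMSO-treated control cells and 13.2, 14.7 and 14.1 CPM with olaparib. In knockdown cells it had 13.5, 14.7 and 14.6 CPM with DMSO and 20.9, 17.7 and 15.8 CPM with olaparib. Olaparib libraries were below the DMSO libraries in control cells and above them in knockdown cells. CHAC1 fell with olaparib in control cells (log2 fold change -0.40, SE 0.101, adjusted p = 0.00329) and rose in knockdown cells (log2 fold change 0.34, SE 0.0966, adjusted p = 0.00745). With knockdown it fell in DMSO (log2 fold change -0.37, SE 0.0988, adjusted p = 0.00799) and was higher in olaparib (log2 fold change 0.37, SE 0.0987, adjusted p = 0.00627), and the fall in DMSO was just lost without control DMSO library 1 (adjusted p = 0.0501).

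**Figure D3:**
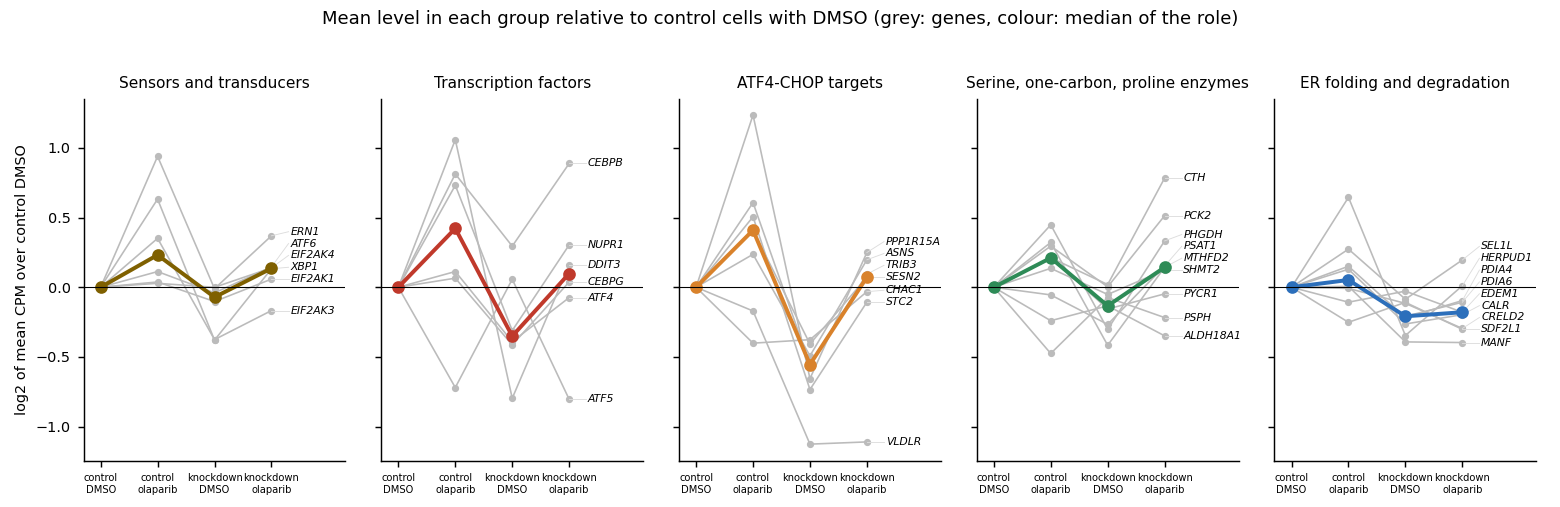
Mean level of each gene in the 4 groups (horizontal axis) as the log2 of its ratio to DMSO-treated control cells (vertical axis), with 1 panel per role, genes in grey and the median of the role in colour. The median of the ATF4-CHOP targets rises with olaparib, is lowest in DMSO-treated knockdown cells and returns close to 0 in knockdown cells with olaparib, while that of the ER genes stays below 0 in both knockdown groups.

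The enzymes of serine, one-carbon, cysteine and proline metabolism had a median log2 fold change of -0.13 with knockdown in DMSO, beside -0.55 for the ATF4-CHOP targets, and PSAT1 and CTH had a larger olaparib effect in knockdown cells. Olaparib raised 5 of the 9 (55.6%, against 23.6% of all genes) and lowered 2 (22.2%, near the 23.2% of all genes) in control cells. In knockdown cells it raised 6 (66.7%, against 24.1%) and lowered 1 (11.1%, against 24.0%). Knockdown lowered 4 in DMSO (44.4%, against 15.2%) and raised 0 by edgeR, 0 by DESeq2 and 0 at an unadjusted p below 0.05. In olaparib it lowered 2 (22.2%, near the 19.3% of all genes) and raised 4 (44.4%, against 19.0%). PHGDH makes the first committed step from glycolysis to serine. Its level was 162, 139 and 160.4 CPM in DMSO-treated control cells, 202, 218 and 209.5 CPM with olaparib, 122, 132 and 121 CPM in DMSO-treated knockdown cells and 198, 195 and 189 CPM with olaparib. The olaparib libraries were above the DMSO libraries in either arm. PHGDH rose by 0.45 (SE 0.0583, adjusted p = 5.06e-06) in control cells and by 0.63 (SE 0.0583, adjusted p = 6.53e-08) in knockdown cells, and fell with knockdown in DMSO (-0.30, adjusted p = 0.000631).

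PSAT1, the transaminase of the next step, had 434, 429 and 424 CPM in DMSO-treated control cells and 396, 413 and 429.6 CPM with olaparib, which overlapped. Knockdown cells held 349, 348 and 373 CPM with DMSO and 450.1, 481 and 498 CPM with olaparib, the lowest and the highest of the 4 groups. PSAT1 was not called for olaparib in control cells (-0.055, 95% interval -0.16 to 0.046) and rose in knockdown cells (log2 fold change 0.42, SE 0.0482, adjusted p = 1.12e-06). It fell with knockdown in DMSO (log2 fold change -0.27, SE 0.0483, adjusted p = 0.000316) and was higher with knockdown in olaparib (log2 fold change 0.21, SE 0.0481, adjusted p = 0.0022).

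PSPH, the phosphatase of the last step, had 36.95, 36.6 and 37.5 CPM in DMSO-treated control cells and 24.8, 28.2 and 27.0 CPM with olaparib. Knockdown cells held 35.9, 35.9 and 33.7 CPM and 32.0, 32.0 and 31.6 CPM. Control cells with olaparib were the lowest group and did not overlap another. PSPH fell with olaparib in control cells (log2 fold change -0.47, SE 0.0647, adjusted p = 8.84e-06) and was not called in knockdown cells (-0.14, adjusted p = 0.0699). The fall in knockdown cells was called with upper-quartile scaling (adjusted p = 0.0342) and with a filter on mean level (0.0375). It was also called without knockdown DMSO library 3 (0.0483). In olaparib it was higher with knockdown (log2 fold change 0.26, SE 0.0643, adjusted p = 0.0037). The enzymes of this short route thus went different ways with olaparib in control cells, where PHGDH rose, PSAT1 was not called and PSPH fell.

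MTHFD2 and SHMT2 carry one-carbon units in mitochondria. MTHFD2 had 176, 167 and 166 CPM in DMSO-treated control cells, 211, 209 and 217 CPM with olaparib, 125, 122 and 135 CPM in DMSO-treated knockdown cells and 176, 189 and 198 CPM with olaparib. Olaparib libraries were above DMSO libraries in either arm, and DMSO-treated knockdown cells were lowest. It rose with olaparib by 0.32 (SE 0.0531) in control cells and 0.56 (SE 0.0532) in knockdown cells, with adjusted p of 6.82e-05 and 1.04e-07. It fell with knockdown by 0.41 in DMSO (adjusted p = 6.85e-06) and by 0.18 in olaparib (adjusted p = 0.0114), the latter lost without knockdown olaparib library 1 (0.0572). SHMT2 had 164, 148 and 167, then 177, 182 and 166, then 150.4, 159 and 152, then 169.7, 175 and 176 CPM in the same order of groups. Its control groups overlapped, and its rise with olaparib there (0.14, adjusted p = 0.0449) was lost under 9 of 20 alternative settings, up to an adjusted p of 0.229. In knockdown cells SHMT2 rose by 0.17 (adjusted p = 0.0108).

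CTH makes cysteine from cystathionine and was the least abundant of the enzymes in CPM. It had 7.24, 7.87 and 7.01 CPM in DMSO-treated control cells, 8.67, 8.16 and 8.78 CPM with olaparib, 8.02, 7.28 and 7.10 CPM in DMSO-treated knockdown cells and 12.4, 12.0 and 13.7 CPM with olaparib. The last group stood above all others. CTH rose 1.70-fold with olaparib in knockdown cells (log2 fold change 0.76, SE 0.0935, adjusted p = 2.32e-06), was not called in control cells (0.21, adjusted p = 0.0986), and was higher with knockdown in olaparib (log2 fold change 0.56, SE 0.0939, adjusted p = 0.000109). PCK2, the mitochondrial enzyme that makes phosphoenolpyruvate, rose with olaparib by 0.30 and 0.51 and was higher with knockdown in olaparib by 0.22, all called. The proline route went differently: ALDH18A1, its first enzyme, fell with olaparib by 0.24 in control cells and 0.21 in knockdown cells, both called, and its fall with knockdown in DMSO (adjusted p = 0.0367) was lost under 9 alternative settings, up to 0.116. PYCR1, which closes that route, rose with olaparib in control cells by 0.21 (adjusted p = 0.0107), a call lost without control DMSO library 2 or control olaparib library 1 (up to 0.0775), and fell with knockdown in olaparib by 0.26 (adjusted p = 0.0034).

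The ER folding and degradation genes had a median log2 fold change of -0.21 with knockdown in DMSO. Knockdown lowered 5 of the 9 in DMSO and 6 in olaparib and raised 0 and 0 by edgeR, 0 and 0 by DESeq2 and 0 and 0 at an unadjusted p below 0.05. Those it lowered were 55.6% and 66.7%, against 15.2% and 19.3% of all genes. Olaparib raised 4 in control cells and 3 in knockdown cells, and lowered 0 and 2. The rises were 44.4% and 33.3%, against 23.6% and 24.1% of all genes. The 2 falls in knockdown cells were 22.2%, near the 24.0% of all genes. By DESeq2 olaparib lowered 0 and 1, and 0 and 2 were lower at an unadjusted p below 0.05. HERPUD1 organises ER-associated degradation in the ER membrane. It had 96.7, 97.4 and 90.4 CPM in DMSO-treated control cells and 149, 145 and 151 CPM with olaparib, against 73.0, 72.2 and 78.6 CPM and 97.03, 95.3 and 94.3 CPM in knockdown cells. Control cells with olaparib were far above the other groups. HERPUD1 rose 1.56-fold with olaparib in control cells (log2 fold change 0.65, SE 0.0514, adjusted p = 8.43e-09) and 1.28-fold in knockdown cells (log2 fold change 0.35, SE 0.0518, adjusted p = 1.81e-05). It fell with knockdown by 0.34 in DMSO and 0.63 in olaparib, with adjusted p of 4.69e-05 and 9.74e-09.

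MANF, a secreted ER stress protein that protects neurons and other cells, had 329.9, 325 and 330.1 CPM in DMSO-treated control cells and 327, 329 and 334 CPM with olaparib. Knockdown cells held 265, 251 and 234 CPM and 260.3, 255 and 233 CPM. Knockdown libraries were below all control libraries, and olaparib left the range of either arm nearly where it was. MANF fell with knockdown in DMSO (log2 fold change -0.39, SE 0.0514, adjusted p = 7.9e-06) and in olaparib (log2 fold change -0.40, SE 0.0513, adjusted p = 4.57e-06), and its olaparib effect was 0.0068 in control cells and -0.0026 in knockdown cells, neither called, with 95% intervals of -0.10 to 0.11 and -0.11 to 0.11.

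CALR, the lectin chaperone calreticulin and the most abundant of the 37 genes per kilobase, averaged 3826 ± 75.6 CPM (SD, n = 3) in DMSO-treated control cells and 3187 ± 202 CPM in DMSO-treated knockdown cells. It fell with knockdown by 0.26 in DMSO and 0.33 in olaparib, both called. Its rise with olaparib in control cells (0.13, adjusted p = 0.0288) was lost under 6 alternative settings, up to 0.169. The disulfide isomerases PDIA4 and PDIA6 fell with knockdown by 0.22 and 0.21 in DMSO and by 0.25 and 0.16 in olaparib, all called. PDIA4 rose with olaparib by 0.15 and 0.12, but upper-quartile scaling ended both calls, and adjusted p reached 0.0631 and 0.11. SEL1L, the adaptor of the ER-associated degradation ligase, rose with olaparib by 0.27 in control cells and 0.28 in knockdown cells, with adjusted p of 0.00044 and 0.000339, and was not called for knockdown.

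CRELD2, a secreted ER stress protein, fell with knockdown in olaparib by 0.28 (adjusted p = 0.00451). Its fall with olaparib in knockdown cells (adjusted p = 0.0482) was lost under 10 alternative settings, up to 0.235, and that of EDEM1, which hands misfolded glycoproteins to degradation, under 5 (from 0.0292 to 0.168). SDF2L1, an ER chaperone cofactor, was called in no comparison when all 4 groups were fitted together. Its level was 38.0, 42.9 and 41.0 CPM in control cells given DMSO and 35.1, 33.7 and 33.7 CPM with olaparib, which did not overlap, and with only these groups in the fit it was called lower with olaparib (log2 fold change -0.25, adjusted p = 0.344 with all groups and 0.00108 with the 2 alone). In knockdown cells it was called lower with olaparib only without knockdown DMSO library 1 (adjusted p = 0.041). Its knockdown libraries 1 to 3 held 26.9, 39.9 and 46.3 CPM with DMSO and 41.8, 31.4 and 25.7 CPM with olaparib, so that the highest and the lowest library of either group were the same as for CEBPB.

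Whether olaparib acted differently in knockdown cells was tested as the interaction, the log2 fold change in knockdown cells minus that in control cells. It was positive and called for 6 of the 37 genes and negative for 1, against 2.84% and 2.85% of all genes tested, with a median of 0.038 beside -0.0041 for all genes. The positive ones were CEBPG, CHAC1, ASNS, PSAT1, PSPH and CTH, which are 1 transcription factor, 2 targets and 3 enzymes, and the negative one was HERPUD1. The differences for CHAC1 (0.74, SE 0.14, adjusted p = 0.005), ASNS (0.45, SE 0.0711, adjusted p = 0.0012) and PSAT1 (0.47, SE 0.0682, adjusted p = 0.000762) were called under every alternative setting tried. Those for CEBPG, PSPH, CTH and HERPUD1 were lost under some of them. Among the sensors 0 of 6 were called by edgeR or DESeq2 or reached an unadjusted p below 0.05. PPP1R15A, with a difference of -0.33, did not pass (adjusted p = 0.0709), and 2 of 19 alternative settings called it, with adjusted p down to 0.0216.

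CEBPG, the dimer partner of ATF4, was given by library here after its values were seen. Control cells held 83.7, 90.3 and 80.1 CPM with DMSO and 85.8, 88.1 and 92.0 CPM with olaparib, which overlapped, and knockdown cells held 64.9, 59.6 and 66.4 CPM and 82.2, 86.4 and 92.3 CPM. DMSO-treated knockdown cells stood below all other groups. CEBPG was not called for olaparib in control cells (0.066, 95% interval -0.065 to 0.20), rose in knockdown cells (log2 fold change 0.45, SE 0.0623, adjusted p = 1.01e-05) and fell with knockdown in DMSO (log2 fold change -0.41, SE 0.0629, adjusted p = 4.8e-05). Under olaparib its level did not differ detectably between arms (-0.029, 95% interval -0.16 to 0.10).

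**Figure D4:**
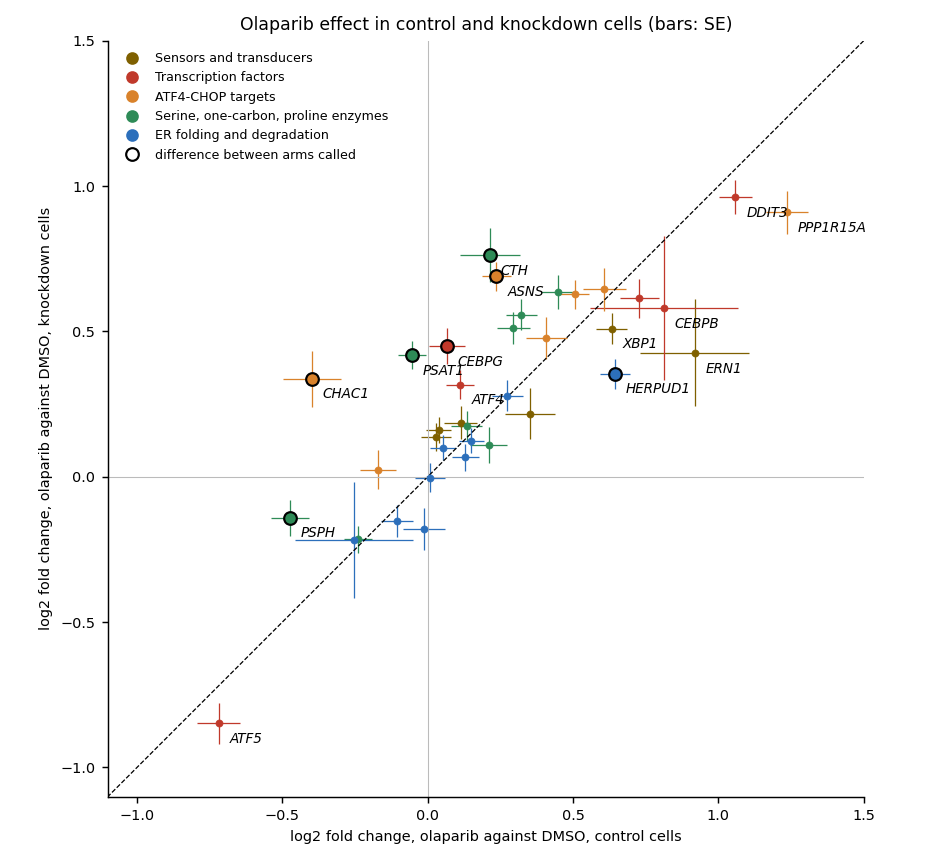
Log2 fold change with olaparib in control cells (horizontal axis) and in knockdown cells (vertical axis) for the 37 genes, with SE bars, coloured by role. The dashed line marks equal effects, and black rings mark the 7 genes whose effects differed between arms. CHAC1, PSAT1, CEBPG, ASNS, CTH and PSPH lie above the line, HERPUD1 below it, and DDIT3 and ATF5 near its ends.

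Cells with both treatments were also compared with DMSO-treated control cells, which carried non-targeting siRNA, so that this comparison takes in the drug and the knockdown at once. Of the 37 genes 14 were higher and 8 lower, against 23.8% and 23.4% of all genes tested, with a median of 0.058 beside -0.0065 for all genes. With upper-quartile scaling 9 were higher, and without control DMSO library 2, 8 were. Among the genes above their level in DMSO-treated control cells were CTH (0.77, adjusted p = 2.7e-06) and PCK2 (0.51, adjusted p = 3.84e-07), and among those below it VLDLR (-1.102, adjusted p = 1.03e-10) and ATF5 (-0.79, adjusted p = 4.72e-08). CEBPB had the largest rise (0.89, adjusted p = 0.0191), which was lost without control DMSO library 2 or 3 or knockdown olaparib library 1 (up to 0.0564). DDIT3 and XBP1, both raised by the drug and lowered by the knockdown, ended close to that level (0.16 and 0.13), and their calls (adjusted p = 0.0254 and 0.0486) were lost under 4 and 13 alternative settings. TRIB3, SESN2, STC2 and HERPUD1 were not called, with log2 fold changes of 0.096, 0.071, -0.11 and 0.011.

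Other genes of both pathways, from lists of known members also chosen with earlier results known, were counted in the same fits. Of 28 other integrated stress response genes 26 passed the filter, and CBS and FGF21 did not. Olaparib raised 11 (42.3%, against 23.6% of all genes) and lowered 5 (19.2%, against 23.2%) in control cells. In knockdown cells it raised 14 (53.8%, against 24.1%) and lowered 4 (15.4%, against 24.0%). Knockdown raised 3 (11.5%, against 14.7%) and lowered 7 (26.9%, against 15.2%) in DMSO. In olaparib it raised 4 and lowered 4, 15.4% each and below the 19.0% and 19.3% of all genes. ATF3, a stress-induced factor and CHOP partner, rose with olaparib by 0.45 and 0.50 and fell with knockdown by 0.72 and 0.68, all called. The amino acid transporter genes SLC3A2, SLC7A1 and SLC7A5 rose with olaparib in control cells by 0.64, 0.58 and 0.48, all called. SLC7A11, the cystine transporter that feeds glutathione synthesis, had the pattern of CHAC1. It averaged 71.1 ± 2.34 CPM in DMSO-treated control cells (SD, n = 3), 61.3 ± 3.72 with olaparib, 54.1 ± 5.35 in DMSO-treated knockdown cells and 82.1 ± 9.94 with olaparib. It fell with olaparib in control cells (-0.21, adjusted p = 0.0465), rose in knockdown cells (0.59, adjusted p = 1.43e-05), and the difference was 0.80 (SE 0.117, adjusted p = 0.000956). ALDH1L2, of mitochondrial folate metabolism, was the other gene of the list with a called difference (0.43, adjusted p = 0.0124).

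The 5 subunit genes of eIF2B, the exchange factor that phosphorylated eIF2 blocks, did not move together with olaparib. EIF2B5, EIF2B1 and EIF2B4 fell by 0.54, 0.26 and 0.24 in control cells and by 0.45, 0.19 and 0.22 in knockdown cells, all called. EIF2B2 and EIF2B3 rose by 0.24 and 0.21 in control cells and by 0.21 and 0.32 in knockdown cells, all called; EIF2B3 was chosen for naming after its values were seen. EIF2B2 was also higher with knockdown by 0.44 in DMSO and 0.41 in olaparib, both called.

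Of 35 other ER genes 32 passed the filter, and DERL3, ERN2 and ERO1B did not. Olaparib raised 8 (25%) and lowered 7 (21.9%) in control cells, near the 23.6% and 23.2% of all genes. In knockdown cells it raised 8 (25%), near the 24.1% of all genes, and lowered 4 (12.5%, against 24.0%). Knockdown raised 2 (6.25%, against 14.7%) and lowered 10 (31.2%, against 15.2%) in DMSO. In olaparib it raised 4 (12.5%, against 19.0%) and lowered 11 (34.4%, against 19.3%). HSPA5, the master ER chaperone BiP, changed little, with 0.16 and 0.20 for olaparib and -0.24 and -0.20 for knockdown, all called. DNAJB9, a co-chaperone made through IRE1 and XBP1, rose with olaparib by 0.88 in control cells and 0.56 in knockdown cells, both called, and was not called for knockdown. ERO1A, the ER oxidase that CHOP is known to raise, fell with knockdown by 0.82 in DMSO and 0.57 in olaparib, and WFS1, an ER membrane protein, fell with olaparib by 0.66 and 0.74, all called. Unlike DDIT3, ERO1A did not rise with olaparib in either arm. Its mean was 184 CPM with DMSO and 151 CPM with olaparib in control cells, and 104 and 102 CPM in knockdown cells. SYVN1, the ligase partner of SEL1L and HERPUD1, had the one called difference between arms (-0.36, adjusted p = 0.0437), in the same direction as HERPUD1.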

How the data were processed

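The authors deposited raw counts per gene in 12 columns with gene lengths, and a table of log2 fold changes with p-value columns adjusted as false discovery rates, per the file headers. Per the submitters' processing notes, bcl2fastq (version 2.20.0.422) made the reads. The aligner, counter, annotation, genome build and strand setting are not given in the sources used here, so reads of overlapping or antisense genes cannot be told apart. The deposited counts were tested with edgeR 4.0.16 (R 4.3.3, limma 3.58.1): genes with more than 1 CPM in at least 3 libraries, TMM scaling, robust quasi-likelihood F tests over 4 groups (8 residual degrees of freedom) and Benjamini-Hochberg adjustment over 12122 genes, called below 0.05. The SE is the absolute log2 fold change over the root of F, and 95% intervals use the t distribution. CPM were scaled by the TMM library sizes. The biological coefficient of variation was 6.1%. DESeq2 1.42.0 was an alternative test. The scripts were tested on simulated data. Rows without a symbol, 51 in number, held at most 0.00311% of counts. Tables of rescaled counts were not used.

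Members were those of the given list. Values by library are given for 15 chosen genes and, per role, for the gene with the largest called change in each of the first 4 comparisons. ATF5, CEBPG and SDF2L1 were added after their values were seen, SDF2L1 for its spread in knockdown cells. Other pathway genes were named among the 3 largest called rises and falls per list, with ATF3, HSPA5 and DNAJB9 always. Members and lists were chosen with earlier results of these data known. Alternatives were other scaling, another test, other filters, only the groups compared, a replicate block, thinned counts and each library left out.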

Additional observations from a re-analysis of the deposited data

Results flagged for a closer look

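For 7 of the 37 genes the effect of olaparib differed between control and knockdown cells, by the interaction term of the edgeR quasi-likelihood fit with Benjamini-Hochberg adjustment. The difference, the log2 fold change in knockdown cells minus that in control cells, was 0.735 for CHAC1 (adjusted p = 0.005), whose RNA fell in control cells and rose in knockdown cells. For CTH it was 0.550 (adjusted p = 0.0257), with a called rise in knockdown cells. For PSAT1 it was 0.473 (adjusted p = 0.000762) and for ASNS 0.453 (adjusted p = 0.0012), with higher values in all 3 olaparib libraries than in all 3 DMSO libraries of knockdown cells. For CEBPG it was 0.384 (adjusted p = 0.0152), a call lost without control DMSO library 2 or control olaparib library 1, up to 0.0563. For PSPH it was 0.334 (adjusted p = 0.0343), with a called fall in control cells. The fall in knockdown cells was called only under some alternative settings. The PSPH call for the difference was lost under 10 of 19 alternative settings, up to 0.115. The CTH call was lost under 6, up to 0.0846. For HERPUD1 the difference was -0.290 (adjusted p = 0.0244), a rise in both arms that was smaller in knockdown cells, and the call was lost under 6 settings, up to 0.07.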

How the results depend on the processing

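Of 128 calls over the 37 genes and 6 comparisons, 100 were kept under every alternative tried and 28 were lost under at least one, and none reversed direction while called. The number of genes lower with olaparib in knockdown cells was 4, and 2 with no filter or with only the 2 groups compared, and it ran from 2 to 5 as each library was left out, being 2 without knockdown DMSO library 2 or knockdown olaparib library 2. Negative differences between arms numbered 1, and 2 with no filter and 0 with thinned counts, from 0 to 2 as each library was left out, with 0 without control DMSO library 3, any control olaparib library or knockdown olaparib library 2, and 2 without knockdown olaparib library 1. Positive differences numbered 6, from 3 to 7 as each library was left out, with 3 without control DMSO library 2 or control olaparib library 1. Genes higher with both treatments numbered 14, and 9 with upper-quartile scaling, from 8 to 14 as each library was left out, with 9 without control DMSO library 3 or knockdown olaparib library 2 or 3. The cause was not tested, except that leaving out a library and thinning leave less data. All other counts stayed within 1.5 times.

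Same-numbered libraries of different groups did not deviate together (18 pairs, correlation from -0.36 to 0.31, median -0.057), and 3 of 12 libraries correlated best with their own number, so the numbers were not taken as pairs. With the replicate number as a block, genes called higher and lower were 18 and 5 for olaparib in control cells, 23 and 4 in knockdown cells, 0 and 21 for knockdown in DMSO, 5 and 19 in olaparib, 5 and 1 for the difference between arms, and 13 and 8 for both treatments. The calls lost with the block were CEBPB (adjusted p = 0.0624) and SHMT2 (0.0614) for olaparib in control cells, EIF2AK3 (0.0516) in knockdown cells, ALDH18A1 (0.0537) for knockdown in DMSO, PSPH (0.0522) for the difference between arms and XBP1 (0.0654) for both treatments. ERN1 and CTH had the lowest counts behind their values, at under 15 CPM.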

Other observations

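CEBPB and SDF2L1 had the same libraries at their extremes in knockdown cells: library 3 was highest and library 1 lowest with DMSO, and library 1 was highest and library 3 lowest with olaparib. CEBPB had a coefficient of variation of 3.06% and 5.89% in control cells with DMSO and with olaparib, and SDF2L1 of 6.07% and 2.38%. In knockdown cells the values were 28.8% and 31.3% for CEBPB and 26.3% and 24.7% for SDF2L1.

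In the authors' deposited table, whose tool is not named, the calls at a false discovery rate below 0.05 were the same as here for 36 of the 37 genes for olaparib in control cells and 35 in knockdown cells. They were the same for 37 for knockdown in DMSO, 37 in olaparib, 37 for the difference between arms and 36 for both treatments.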
